A study of Mus musculus with 2 samples.

Results

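The cytosolic ribosomal proteins were followed across cells sorted from B16 tumour and from lymph node of Foxp3Cre-YFP mice. The members were defined by symbol, as genes named Rpl or Rps followed by a digit, with Rplp0, Rplp1, Rplp2 and Rpsa added. The S6 kinases and the entries marked -ps were left out. This gave 87 of the 27998 genes in the deposited lists, of which 33 are named for the 40S subunit, 53 for the 60S subunit, and 1, Rps19bp1, is named after a binding partner of Rps19 and is not itself a ribosomal protein. Of these, 9 carried the name of a paralogue (such as Rps27l or Rpl39l), and the remaining 77 are called core members. The naming rule does not reach every ribosomal protein, for example that encoded by Fau, which is made as a fusion with a ubiquitin-like sequence.

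There were 2 groups of 1 library each. The first was a B16 melanoma taken at day 14, and the second was lymph node of mice that were left unchallenged. Both came from C57BL/6 mice aged 5 to 8 weeks that carried Foxp3Cre-YFP, a reporter that places Cre recombinase and a yellow fluorescent protein under Foxp3, the gene of the transcription factor that defines regulatory T cells (Treg). All values come from wild-type reporter animals, and no deletion was compared. The cells were sorted and then loaded on the 10x Chromium 3′ system, but the labels name neither the gate nor the number of mice. With 1 library per group, no test between groups was possible, and every interval given here is a 95% interval that covers counting error only.

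The 40S subunit reads the mRNA and the 60S subunit forms the peptide bonds. Each is built from ribosomal RNA and a set of mostly small, basic proteins that, apart from the paired stalk proteins, are needed in equal number. Most mRNAs of these proteins begin with a cytosine followed by a run of pyrimidines, the 5′ terminal oligopyrimidine (TOP) tract, through which the kinase mTORC1 and the RNA-binding protein LARP1 control their translation and stability. Ribosomal protein mRNAs are among the most abundant mRNAs of resting lymphocytes, and T cells make new ribosomes when they are activated and divide.

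After the filters on depth, genes, mitochondrial share and foreign transcripts, 1457 tumour cells with 16669263 UMIs and 2202 lymph node cells with 10681101 UMIs were kept. A UMI (unique molecular identifier) stands for 1 captured mRNA molecule, read at its 3′ end whatever its length. The median cell held 8766 UMIs in tumour and 4100 UMIs in lymph node, and 1 barcode occurred in both libraries. T cell markers (Cd3e, Cd3d, Cd3g, Cd4) summed to 3384 CPM (UMIs scaled to a total of 1000000) in tumour and 2793 CPM in lymph node, and Treg markers to 4402 CPM in tumour and 2603 CPM in lymph node. Of the Treg markers, Tnfrsf18, Ctla4, Ikzf2 and Capg were higher in tumour. Foxp3 (17.2 CPM in tumour and 21.9 CPM in lymph node), Il2ra (149 and 156 CPM) and Izumo1r (362 and 755 CPM) were lower there. A Foxp3 UMI was seen in 244 tumour cells and 211 lymph node cells. In the kept cells the 7 melanoma markers summed to 34.1 CPM in tumour, all detected, and to 0.749 CPM in lymph node, with Dct, Mlana, Tyrp1, Tyr and Sox10 at 0. The 7 macrophage markers summed to 8.64 CPM in tumour, with Adgre1 at 0, and to 2.06 CPM in lymph node, with C1qb, C1qc, Csf1r and Adgre1 at 0. The B cell markers summed to 9.30 CPM in tumour, with Pax5 at 0, and to 17.8 CPM in lymph node. Of the CD8 T cell markers, Cd8a was at 0 in both and Cd8b1 had 19.5 CPM in tumour and 17.6 CPM in lymph node. The 3 NK cell markers had no UMI in tumour and 4 UMIs in lymph node, with Ncr1 at 0 in both.

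Ribosomal protein mRNAs took a smaller share of the transcriptome in tumour than in lymph node. They made up 27.6% of all UMIs in tumour cells (counting interval 27.60 to 27.64), against 40.8% in lymph node cells (40.78 to 40.84), a log2 ratio of -0.56. The median single cell held 26.1% in tumour (SD over cells 5.30, 5th to 95th percentile 17.9 to 34.8) and 41.5% in lymph node (SD 7.51, 27.2 to 51.1). The 2 distributions overlapped in part: 99.4% of tumour cells lay below the lymph node median, 57.8% lay below the lymph node 5th percentile, and 3.81% of lymph node cells lay below the tumour median. Cells are not replicates, so these shares describe the 2 libraries.

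In UMIs per cell, the difference between the libraries depended on the depth limit used. The median tumour cell held 2332 ribosomal protein UMIs and 6493 UMIs of all other genes. The median lymph node cell held 1699.5 ribosomal protein UMIs and 2380 UMIs of other genes, but the limit for a cell was lower there, and 979 lymph node cells lay below the tumour limit of 3834 UMIs. Over the 1223 lymph node cells at or above that limit, a choice made after seeing the data, the medians were 2338 ribosomal protein UMIs and 2923 UMIs of other genes. The limit acts on total UMIs and removed lymph node cells only, which by itself raises the lymph node medians. Capture per cell and RNA content per cell cannot be told apart from these counts.

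**Figure D1:**
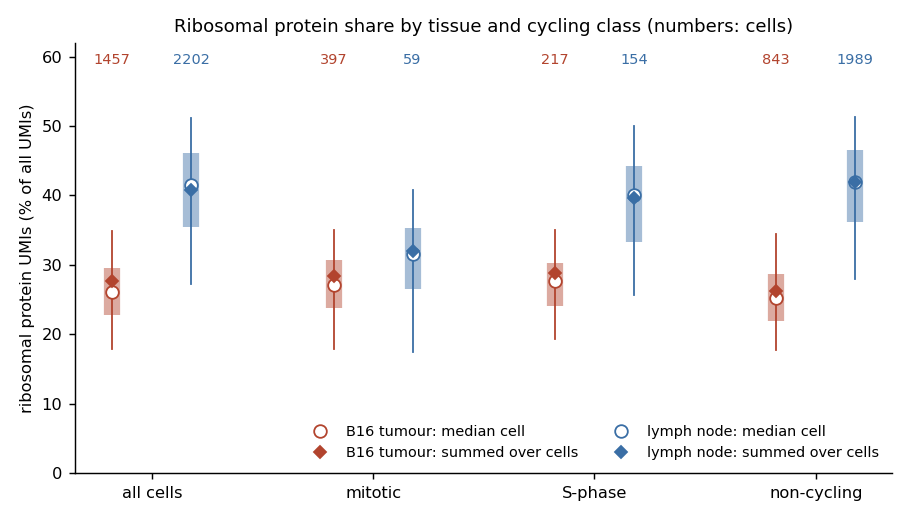
Share of UMIs on ribosomal protein genes (y axis, percent) in B16 tumour (red, left of each pair) and lymph node (blue), for all cells and for each cycling class (x axis). Diamonds are UMIs summed over cells, open circles are median cells, thick bars span the 25th to 75th percentile of cells and thin lines the 5th to 95th percentile; the numbers on top are cells. Only among mitotic cells do the thick bars of the tissues overlap, with summed shares of 28.4% in tumour and 32.0% in lymph node.

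The tissues also differed in how many cells were dividing, so the share was taken within cycling classes. Every cell was thinned at random to 1811 UMIs and called mitotic with at least 3 UMIs of a mitosis list (Mki67, Top2a and others), otherwise S-phase with at least 3 UMIs of a DNA replication list, and otherwise non-cycling. This gave 397 mitotic, 217 S-phase and 843 non-cycling cells in tumour, and 59 mitotic, 154 S-phase and 1989 non-cycling cells in lymph node. The classes are ranges of a score and not cell types: 191 tumour and 40 lymph node cells lay within 1 UMI of the mitotic limit, and 249 tumour and 429 lymph node cells within 1 UMI of the S-phase limit. No doublet caller was run, and deep cells of either library may hold more than 1 cell.

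Non-cycling cells showed a wider gap between the tissues than all cells did. In them, ribosomal protein genes held 26.2% of UMIs in tumour and 41.9% in lymph node, a log2 ratio of -0.68. S-phase cells held 28.8% in tumour and 39.7% in lymph node. In mitotic cells the shares came close, at 28.4% in tumour and 32.0% in lymph node.

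The mitotic classes moved in opposite directions within the 2 libraries. In tumour, mitotic cells held 28.4% against 26.2% in non-cycling cells, a log2 ratio of 0.12, and S-phase cells stood at 0.14. In lymph node, mitotic cells held 32.0% against 41.9% in non-cycling cells, a log2 ratio of -0.39, and S-phase cells stood at -0.08. Mitotic cells were also the deepest, with a median of 16924 UMIs in tumour and 14672 UMIs in lymph node, against 6653 UMIs in non-cycling tumour cells and 4008 UMIs in non-cycling lymph node cells.

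Depth moved with the share, and the tumour comparison of mitotic with non-cycling cells turned round when cells of like depth were compared. In tumour the share of all cells was 23.6% at 3834 to 5999 UMIs, 25.7% at 6000 to 8999, 26.7% at 9000 to 13999, 27.7% at 14000 to 19999 and 30.5% at 20000 or more. In lymph node it was 38.1% at 1811 to 3833 UMIs, 43.3% in each of the next 2 ranges, 39.1% at 9000 to 13999, 37.5% at 14000 to 19999 and 34.8% at 20000 or more. At 9000 to 13999 UMIs, 95 mitotic tumour cells held 24.5% and 177 non-cycling tumour cells 27.8%, a log2 ratio of -0.18. In the same range, 15 mitotic lymph node cells held 29.6% and 52 non-cycling lymph node cells 41.6%, a log2 ratio of -0.49. Mitotic cells were below non-cycling cells in each tumour range up to 19999 UMIs, by -0.04 to -0.31 on the log2 scale, and above them by 0.10 at 20000 or more, where only 9 non-cycling tumour cells lay. In lymph node they were below in all 6 ranges, by -0.42 to -0.88, with 3 to 17 mitotic cells per range and only 1 non-cycling cell at 20000 or more.

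At like depth the gap between the tissues stayed, and was widest in shallow cells. At 3834 to 5999 UMIs, 401 tumour cells held 23.6% and 800 lymph node cells 43.3%, a log2 ratio of -0.87. At 6000 to 8999 UMIs the ratio was -0.75, at 9000 to 13999 it was -0.55, at 14000 to 19999 it was -0.44 and at 20000 or more it was -0.19. Among non-cycling cells alone it ranged from -0.58 to -0.86 over the 4 ranges up to 19999 UMIs.

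**Figure D2:**
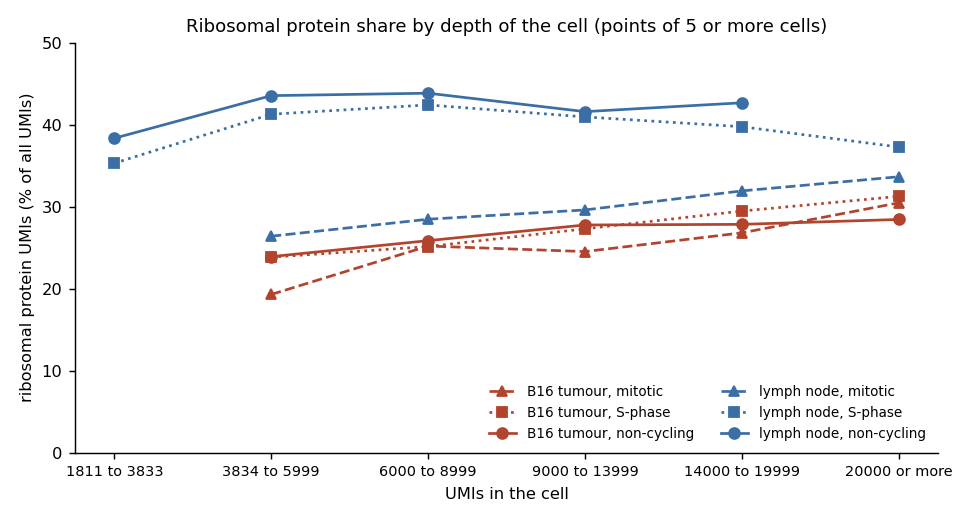
Share of UMIs on ribosomal protein genes (y axis, percent) by the number of UMIs in the cell (x axis), for mitotic (triangles, dashed), S-phase (squares, dotted) and non-cycling cells (circles, solid) of B16 tumour (red) and lymph node (blue); points of fewer than 5 cells are left out. Tumour classes lie within a few percent of each other at each depth, whereas lymph node mitotic cells (29.6% at 9000 to 13999 UMIs) lie far below lymph node non-cycling cells (41.6%).

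Within lymph node the share followed a list of 13 genes of resting T cells (such as Ccr7, Tcf7 and Klf2). UMIs of that list were counted in cells thinned to equal depth, and the shares were taken from full counts. The 1745 lymph node cells with 3 or more list UMIs held 42.2% ribosomal protein UMIs, and the 196 with 2 held 39.3%. The 153 with 1 held 36.7% and the 108 with none held 33.2%. In tumour the same groups, of 93, 111, 317 and 936 cells, held 27.4%, 26.4%, 26.9% and 27.9%, with no such order. These tumour groups differed in depth, with a median of 5979 UMIs in the first and 9901.5 UMIs in the last. Among non-cycling cells alone they held 28.2%, 25.6%, 25.9% and 26.1% in tumour, where the first group was highest. In lymph node the non-cycling groups held 42.8%, 40.1%, 38.4% and 34.6%. The list was rarer in tumour, at 278 CPM summed, against 2792 CPM in lymph node. Cells with a Foxp3 UMI held 27.3% in tumour, where cells with none held 27.7%, and 39.5% in lymph node, where cells with none held 41.0%. Only 244 tumour and 211 lymph node cells had such a UMI, so cells with none may also express Foxp3. Those with one were deeper, with a median of 9662 against 8657 UMIs in tumour and 4663 against 4039 UMIs in lymph node. When cells were ranked by mitochondrial share into 4 equal groups, the ribosomal share in tumour was 23.6%, 26.4%, 28.3% and 29.9% from the lowest group up, and in lymph node 40.8%, 42.3%, 41.7% and 37.8%. Depth differed between these groups as well. In the same order, the median cell held 6327.5, 8543.5, 12227.5 and 11176 UMIs in tumour, and 4428, 4535, 4041.5 and 3312 UMIs in lymph node.

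The free RNA of each library carried the same contrast. Barcodes with 10 to 100 UMIs, which hold mostly RNA released from other cells, had 25.1% ribosomal protein UMIs in tumour and 36.2% in lymph node. The 15 tumour barcodes left out for melanoma transcripts had 21.7%, the 3 left out for macrophage transcripts 17.1%, and the 9 lymph node barcodes left out for B cell transcripts 37.6%. Without that filter, the log2 ratio of tumour over lymph node cells was -0.59, close to the -0.56 with it.

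At the level of single genes the shift was broad. Of the 87 members, 85 had at least 50 UMIs over both libraries and were counted, and Rpl10l and Rpl3l, paralogues known from testis and from muscle, had no UMI in the kept cells of either library. Their log2 ratio of CPM, tumour over lymph node, had a median of -0.52 and ran from -2.17 to 0.84, and 82 of 85 were below 0. The median over all 9976 genes counted the same way was 0.14. At least 1.5-fold lower in tumour were 33 members, where 15.4% of all genes counted were. At least 1.5-fold higher were 2 members, where 24.6% of all genes were. Every one of the 77 core members was lower in tumour with a counting interval that did not reach 0, and 61 of them lay within 0.3 of the core median of -0.53. The order of the members by level was similar in the 2 tissues, with rho = 0.93 and r = 0.98 between log2 CPM over 85 genes, and rho = 0.90 and r = 0.88 over the 77 core members, all from the same 2 libraries.

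**Figure D3:**
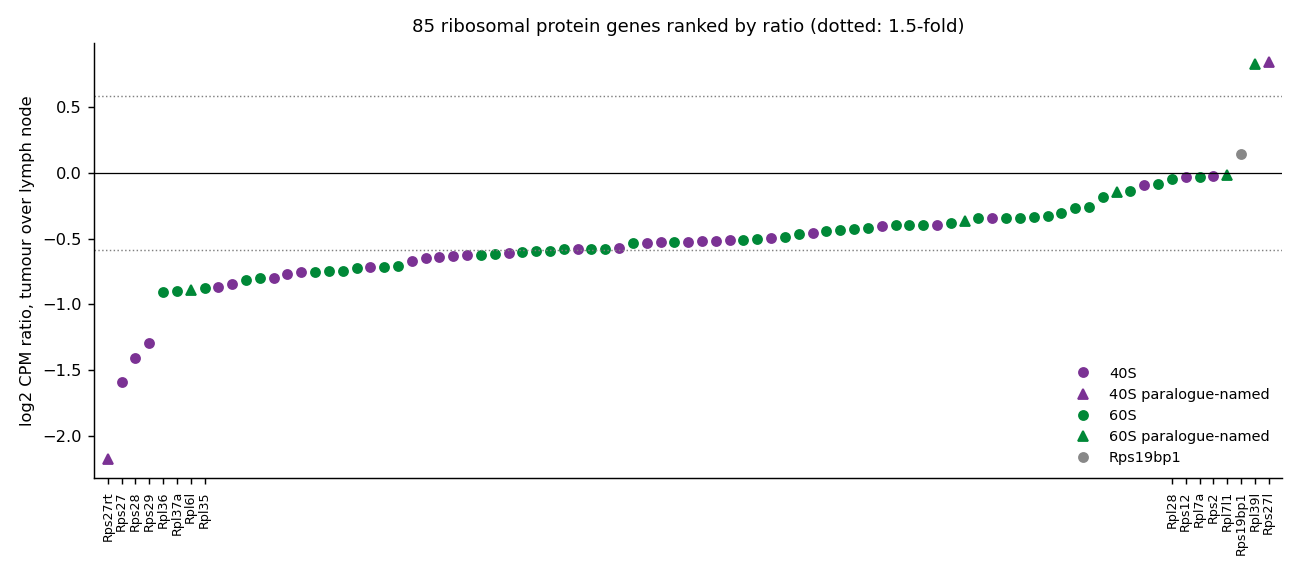
Log2 ratio of CPM, tumour over lymph node (y axis), for the 85 members counted, ranked along the x axis, with the lowest and highest named; purple is 40S, green is 60S, triangles are paralogue-named genes and the grey point is Rps19bp1. The dotted lines mark 1.5-fold; 33 members lie below the lower line, and Rps27l (0.84) and Rpl39l (0.83) above the upper one.

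There were 4 members, all named for the 40S subunit, that were at least 2-fold lower in tumour, where 7.7% of all genes were. The start regions of Rps27rt, Rps27 and Rps28 are shown here beside those of members that hardly differed, and none is shown for Rps29. The windows run from 60 bases before to 20 bases after the start of transcription, on the gene's strand, from RefSeq on GRCm38.p6. Capitals mark the TOP-like tract, defined as a C followed by at least 4 pyrimidines that begins within 10 bases of the annotated start. Pyrimidine runs that reach further upstream were counted from that limit. This was so for Rps27l and Rpl7a, whose runs go on upstream of the capitals, and the Rps27l tract ends before the start. The first 3 belong to the members that were lowest in tumour, the fourth to the paralogue that was highest (the first of its 2 start windows), and the last 4 to core members with the smallest difference.
Rps27 (chr3:90213629-90213708, minus strand): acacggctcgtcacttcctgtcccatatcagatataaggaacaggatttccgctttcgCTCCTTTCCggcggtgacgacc
Rps27rt (chr9:114982720-114982799, minus strand): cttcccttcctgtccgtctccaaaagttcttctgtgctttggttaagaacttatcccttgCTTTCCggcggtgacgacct
Rps28 (chr17:33824543-33824622, minus strand): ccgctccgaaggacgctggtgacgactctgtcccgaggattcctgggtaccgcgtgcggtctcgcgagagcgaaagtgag
Rps27l (chr9:66946026-66946105, plus strand): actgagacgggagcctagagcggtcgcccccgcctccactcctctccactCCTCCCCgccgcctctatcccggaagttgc
Rpl28 (chr7:4792905-4792984, plus strand): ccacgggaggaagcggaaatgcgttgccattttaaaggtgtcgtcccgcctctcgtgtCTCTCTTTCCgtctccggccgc
Rps12 (chr10:23787190-23787269, minus strand): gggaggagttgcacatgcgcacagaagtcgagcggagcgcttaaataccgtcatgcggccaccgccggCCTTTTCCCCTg
Rps2 (chr17:24720003-24720082, plus strand): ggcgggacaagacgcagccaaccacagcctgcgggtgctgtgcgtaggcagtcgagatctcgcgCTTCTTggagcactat
Rpl7a (chr2:26910747-26910826, plus strand): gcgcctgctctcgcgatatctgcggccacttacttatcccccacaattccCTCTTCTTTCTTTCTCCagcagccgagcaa

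A tract of this form was found in members at both ends of the ranking, and no tract was found in the Rps28 window or in the second window of Rps27l. In all, 66 of 87 members had an entry, with 78 start windows of 250 bases before to 50 bases after the start. A tract at the start stood in 42 of the 78 windows (53.8%), against 30.7% of all 32851 windows of the table. The ETS-type motif CCGGAAG, on either strand, was in 34.6% of member windows and 8.86% of all windows, and AAGATGG, the core of a YY1-type motif, on either strand, was in 15.4% of member windows and 6.34% of all windows. TATAA, read on the gene's strand and beginning 45 to 16 bases before the start, was in 6.41% of member windows and 3.89% of all windows. The 40 members with a tract had a median log2 ratio of -0.52, tumour over lymph node, and the 26 without one a median of -0.44.

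Rps27, which encodes a zinc-finger protein of the 40S subunit, was the most abundant member in lymph node. It reached 4033 CPM in tumour and 12124 CPM in lymph node, 3.01-fold lower in tumour (2.98 to 3.03). Rps27rt, on chromosome 9 from 114982366 to 114982739 (minus strand), is a retrocopy of it and had 326 CPM in tumour and 1470 CPM in lymph node, 4.52-fold lower in tumour. The Rps27rt transcript shares an unbroken run of 341 bases with Rps27, and 89.8% of its 50-base words occur there, so reads of the pair cannot be told apart with certainty and its value is not independent of Rps27.

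Rps28 and Rps29, small proteins of the head of the 40S subunit, showed the next lowest ratios. Rps28 had 1661 CPM in tumour and 4406 CPM in lymph node, 2.65-fold lower in tumour (2.61 to 2.69). Rps29 had 3976 CPM in tumour and 9734 CPM in lymph node, 2.45-fold lower in tumour (2.42 to 2.47). With these genes and Rps27rt left out, a choice made after seeing the data, the log2 ratio of the summed share was -0.52. Most of the difference between the tissues thus lay in the other members.

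The remaining low members came from both subunits. Among the 8 lowest were Rpl36 (-0.90), Rpl37a (-0.90), Rpl35 (-0.88) and Rpl6l (-0.89), the last of which the annotation lists as a processed pseudogene whose transcript shares a run of 354 bases with Rpl6. Rpl6 itself stood at -0.43. Rps19, needed to mature the 40S subunit and mutated in Diamond-Blackfan anaemia in humans, was among the most abundant members in lymph node and stood at 4913 CPM in tumour and 8829 CPM in lymph node, 1.80-fold lower in tumour.

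The core members nearest to equal CPM were Rps2, Rpl7a, Rps12 and Rpl28. Rps2, a 40S protein at the mRNA entry site, had 4361 CPM in tumour and 4428 CPM in lymph node. Rpl7a had 1681 CPM in tumour and 1719 CPM in lymph node. Rps12 had 2992 CPM in tumour and 3063 CPM in lymph node, and Rpl28 had 2732 CPM in tumour and 2823 CPM in lymph node. Rpsa, a 40S protein also known as the laminin receptor precursor, stood at -0.09. All of these were slightly lower in tumour, and all 5 stood well above the members' median of -0.52.

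The stalk proteins of the 60S subunit, which recruit the elongation factors, were not alike. Rplp0, the base of the stalk and the most abundant member in tumour, had 6597 CPM in tumour and 7240 CPM in lymph node, 1.10-fold lower in tumour (1.09 to 1.11). Rplp1 had 5113 CPM in tumour and 7186 CPM in lymph node, 1.41-fold lower, and Rplp2 had 4255 CPM in tumour and 6512 CPM in lymph node, 1.53-fold lower. The 2 genes of the paired stalk proteins thus differed by more than the gene of the base they bind.

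Some members also have known roles in signalling. Rps6, the substrate of the S6 kinases, had 4004 CPM in tumour and 5718 CPM in lymph node (log2 -0.51). Rpl5 and Rpl11, which bind Mdm2 when ribosome assembly fails, stood at -0.60 and -0.35. Other abundant members in tumour were Rpl13a (-0.51), Rpl41 (-0.26) and Rpl32 (-0.26), and in lymph node Rps15a (-0.58).

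Some paralogue pairs differed within themselves, and others did not beyond counting error. Rps27l, an Rps27-like protein that is induced by p53 in human cells, had 431 CPM in tumour and 240 CPM in lymph node (log2 0.84), opposite in direction to Rps27, and shares no 50-base word with it. This direction depended on the cycling class: Rps27l stood at 0.52 among non-cycling cells and at -0.27 among mitotic cells, tumour over lymph node. Rpl39l, known from testis, had 100 UMIs in tumour and 36 in lymph node (log2 0.83), and a UMI of it was seen in 0.343% of tumour cells and 0.454% of lymph node cells at equal depth, so no order is read from it. Rpl39 stood at -0.60. Rpl22 (-0.33) and Rpl22l1 (-0.37), whose intervals overlap, Rpl36a (-0.75) and Rpl36al (-0.14), and Rpl7 (-0.34) and Rpl7l1 (-0.01, with an interval that includes equal levels) were all at or below 0. Rpl3 stood at -0.31, Rpl10 at -0.38 and Rps4x at -0.53. Rps19bp1, the only other gene above 0, had 561 UMIs in tumour and 326 in lymph node (log2 0.14), with an interval that includes equal levels.

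By subunit, 40S mRNAs were lower in tumour by more than 60S mRNAs. The 33 members named for 40S held 11.8% of UMIs in tumour and 18.5% in lymph node, and the 53 named for 60S held 15.9% in tumour and 22.3% in lymph node. The ratio of 40S to 60S UMIs was 0.742 in tumour and 0.831 in lymph node. Without Rps27, Rps28, Rps29 and Rps27rt, a choice made after seeing the data, it was 0.679 in tumour and 0.706 in lymph node. It was 0.750 in tumour and 0.770 in lymph node among mitotic cells, 0.730 in tumour and 0.838 in lymph node among non-cycling cells, and 0.770 in tumour and 0.861 in lymph node in free RNA. The median log2 ratio was -0.58 over the 40S members and -0.47 over the 51 counted 60S members.

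Short coding sequences went with lower ratios among core members. The 26 core members with the shortest coding sequence (75 to 405 bases) had a median log2 ratio of -0.69, the next 26 (405 to 576 bases) had -0.53, and the 25 longest (582 to 1257 bases) had -0.43. Over the 77 core members the log2 ratio and the log2 coding length had r = 0.46 and rho = 0.49, and without Rps27, Rps28 and Rps29 r = 0.33. Over all 84 counted members with a coding length r was 0.21 and rho 0.36, and without those genes and Rps27rt r was 0.0023 and rho 0.28. Among non-cycling cells the medians were -0.82, -0.58 and -0.59 from the shortest group to the longest. These genes share both libraries and the values are a description. Of other genes with at least 1000 UMIs and under 300 bases of coding sequence, the 147 had a median of 0.34, where the 11 members of that length had -0.87. Other genes of 300 to below 450 bases had a median of 0.37, and those of 700 to below 1500 bases 0.35.

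**Figure D4:**
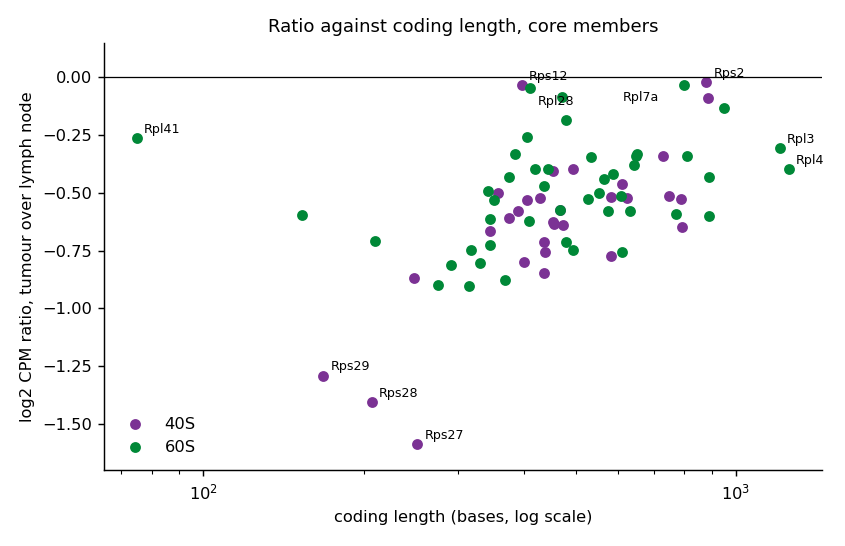
Log2 ratio of CPM, tumour over lymph node (y axis), against coding length in bases (x axis, log scale) for the 77 core members, 40S in purple and 60S in green. Rps27, Rps28 and Rps29 lie lowest among the short members, while Rpl41, the shortest at 75 bases, lies at -0.26, above the core median of -0.53.

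Restricting the comparison to one cycling class changed the count of lower members. Among non-cycling cells, 49 of 85 members were at least 1.5-fold lower in tumour, where 16.7% of all genes were, and the median log2 ratio was -0.62. Among mitotic cells, 4 of 84 members were, where 11.1% of all genes were. The members' median there was -0.13 with 73 of 84 below 0, where 3935 of all 7847 genes counted were. The 4 were Rps27rt, Rps28, Rps29 and Rps27, which stood at -1.11, -0.78, -0.67 and -0.67. In free RNA, 27 of 84 members were, where 15.9% of all genes were, with a median of -0.51. Over the 85 members the ratios in cells and in free RNA had r = 0.93.

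Between mitotic and non-cycling tumour cells few members differed by 1.5-fold or more, a smaller part than of all genes. In tumour, the median log2 ratio of mitotic over non-cycling cells was 0.15 over 85 members; 2 were at least 1.5-fold lower, where 17.3% of all genes were, and 5 at least 1.5-fold higher, where 17.5% of all genes were. The 2 lower were Rps27rt (-0.72) and Rps27, which had 3255 CPM in mitotic and 5101 CPM in non-cycling tumour cells. Among the 5 higher were Rps27l (0.97), Rps2 (0.80) and Rps19bp1 (0.70). Among the next lowest were Rps14 and Rps15a, at -0.21 and -0.20.

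In lymph node the mitotic class was lower for most members. The median was -0.39 over 84 members; 16 were at least 1.5-fold lower, where 18.9% of all genes were, and 2 at least 1.5-fold higher, where 24.7% of all genes were. Rps27 had 5163 CPM in mitotic and 13100 CPM in non-cycling lymph node cells (-1.34). The 2 higher were Rps27l, with 641 CPM in mitotic and 189 CPM in non-cycling lymph node cells (1.76), and Rps19bp1 (0.59). Rps27 and Rps27l thus moved apart in both libraries.

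Some of these gene differences changed when only cells of 9000 to 13999 UMIs were used, a choice made after seeing the data. The members' median ratio of mitotic over non-cycling cells was then -0.18 in tumour, with 78 of 84 members below 0. In lymph node it was -0.49, with 82 of 83 below 0. All genes counted the same way had medians of 0.025 in tumour (5266 genes) and 0.19 in lymph node (1685 genes). In tumour, Rps2 stood at -0.11 in these cells, against 0.80 in the full classes. Rps27 (-0.44) and Rps27l (0.49) kept their directions. In lymph node Rps27 stood at -0.84 and Rps27l at 0.98. Between the tissues, the members' median in non-cycling cells of that depth was -0.56, with 83 of 84 members below 0. The median over all 4614 genes counted there was 0.18. Rps27l stood at 0.05 in these cells and at -0.44 in mitotic cells of that depth.

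Other genes of translation did not, over all cells, share the members' shift to the same extent. Among non-cycling cells the ribosome biogenesis genes did, with a median of -0.72 where the members had -0.62. These lists were chosen with earlier results of these data known, and their counts are set beside 15.4% of all genes at least 1.5-fold lower and 24.6% at least 1.5-fold higher in tumour. Of 23 further genes with TOP mRNAs, most of them factors of elongation and initiation, 2 were at least 1.5-fold lower in tumour and 1 higher, with a median log2 ratio of -0.21. Among non-cycling cells 7 of the 23 were at least 1.5-fold lower, where 16.7% of all genes were, with a median of -0.23. Over all cells, the named genes of this list stood as follows. Eif4b, a helper of the initiation helicase, stood at -0.86, the histone chaperone gene Nap1l1 at 0.72 and the elongation factor gene Eef1g at -0.53.

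Over all cells, other translation factors and mitochondrial ribosomal proteins had medians above 0, as all genes did (0.14), and smaller shares at least 1.5-fold higher than the 24.6% of all genes. Of 26 other factors, none was at least 1.5-fold lower and 5 were higher, with a median of 0.30. Eif4e, the cap-binding protein, had 110 CPM in tumour and 60.9 CPM in lymph node (0.85), and Eif4h, Eif2s1 and Eif1ax stood at 0.70, 0.66 and 0.63. Of 76 counted proteins of the mitochondrial ribosome, 1 was lower and 9 higher, with a median of 0.26. Mrpl54 had 195 CPM in tumour and 94.0 CPM in lymph node (1.05), and Mrpl33, Mrpl27 and Mrps25 stood at 0.82, 0.88 and 0.89. Among non-cycling cells the medians were -0.014 for the other factors, with 13 of 26 below 0, and 0.061 for the mitochondrial proteins. All 9011 genes counted in those cells had a median of 0.11.

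Genes of ribosome biogenesis differed with the cycling class. Over all cells, 5 of 40 were at least 1.5-fold lower in tumour and none higher, with a median of -0.15. Nop10, a protein of the H/ACA particles that modify ribosomal RNA, had 187 CPM in tumour and 327 CPM in lymph node (-0.80), and Fbl, the ribosomal RNA methyltransferase fibrillarin, stood at -0.59. Among non-cycling cells, 24 of 39 showed a ratio of 1.5-fold or more below lymph node, where 16.7% of all genes did, and the median was -0.72. Between mitotic and non-cycling tumour cells, 23 of 38 were at least 1.5-fold higher in mitotic cells, where 17.5% of all genes were, with a median of 0.68, and Nop58, the core protein of the methylation particles, had 86.0 CPM in mitotic and 24.9 CPM in non-cycling tumour cells. In lymph node the same contrast had a median of 0.24, with 6 of 38 lower and 8 higher, where 18.9% of all genes were lower and 24.7% higher, and Nhp2 had 209 CPM in mitotic and 98.0 CPM in non-cycling lymph node cells.

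Of 19 counted regulators of growth and translation, 4 were at least 1.5-fold lower in tumour and 3 higher, with a median of -0.09. Ddit4, an inhibitor of mTORC1 induced by stress, had 340 CPM in tumour and 106 CPM in lymph node (1.68), and Eif4ebp1, a repressor of cap-dependent translation, had 62.5 CPM in tumour and 21.8 CPM in lymph node (1.52). Sesn1 and Sesn3, sestrins that inhibit mTORC1, stood at -1.48 and -0.95. These are levels of mRNA, and the activity of the pathway was not measured.

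**Figure D5:**
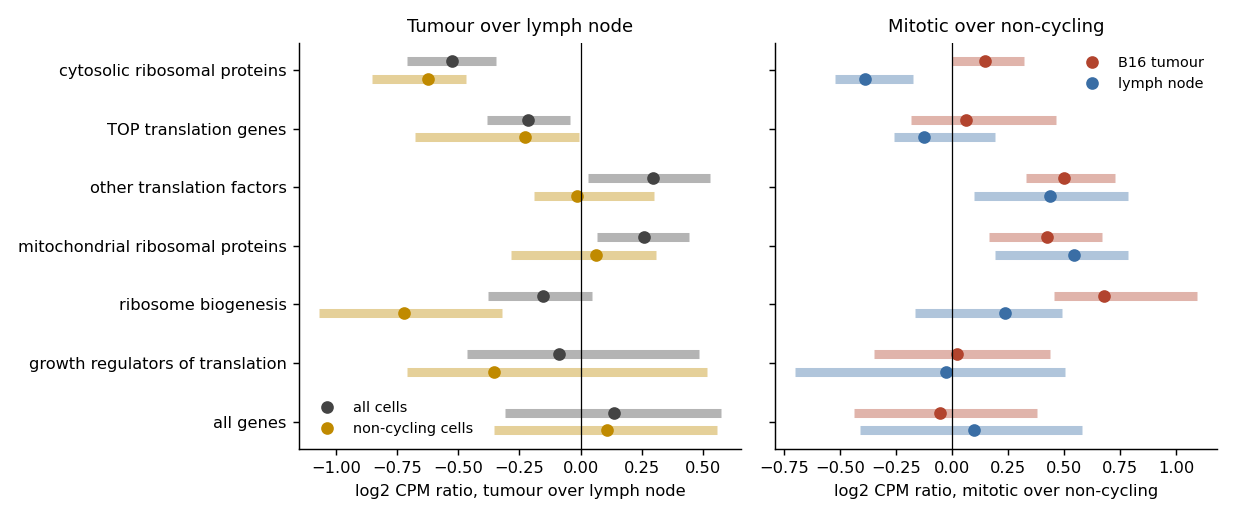
Median log2 ratio of CPM (points) and 25th to 75th percentile of genes (bars) for the ribosomal proteins, 5 lists of related genes and all genes. The left panel gives tumour over lymph node in all cells (grey) and in non-cycling cells (gold), with ribosomal protein medians of -0.52 and -0.62; the right panel gives mitotic over non-cycling cells in B16 tumour (red) and lymph node (blue), with medians of 0.15 and -0.39.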

How the data were processed

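The authors deposited 1 unfiltered matrix of raw UMI counts per library, made with Cell Ranger on mm10 per the submitters' processing notes (version and annotation not given in the sources used here). Gene positions and coding lengths come from GENCODE M21 on GRCm38. Cells were barcodes that reached 10% of the 99th percentile among the 3000 largest (3834 UMIs in tumour, 1811 in lymph node) and had at least 200 genes, at most 10% mitochondrial UMIs, under 20 melanoma UMIs (Pmel, Dct, Mlana), under 3 macrophage UMIs (C1qa, C1qb, Lyz2) and under 2 B cell UMIs (Cd79a, Ms4a1). No doublet caller was run. Counts were summed per library and class and divided by their total (Python 3.11.15, numpy 2.4.6, pandas 2.3.3, scipy 1.17.1). Intervals are exact conditional-binomial for ratios and Wilson for shares, at 95%, for counting error only. Genes with at least 50 UMIs over the compared groups were counted. Ratios and intervals were checked on simulated counts. Scaling by edgeR 4.0.16 was an alternative. The members and lists were chosen with earlier results of these data known. Genes were named by rule: paralogues, stalk genes, Rpsa, Rps6, Rpl5 and Rpl11; the 8 highest and 8 lowest tumour to lymph node ratios; the 5 most abundant per tissue; the 5 highest and 5 lowest mitotic to non-cycling ratios in tumour; and up to 4 per related list. Rps19 and Rps15a entered by abundance. Some genes that the rule names are not reported here.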

Additional observations from a re-analysis of the deposited data

Results flagged for a closer look

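The ratio of mitotic over non-cycling cells for the summed ribosomal protein share had opposite signs in the 2 libraries, at 0.12 (log2) in tumour and -0.39 in lymph node, a difference of 0.51. With 1 library per tissue the difference was not tested. The tumour value changed sign among cells of 9000 to 13999 UMIs, where the ratio was -0.18 in tumour and -0.49 in lymph node.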

How the results depend on the processing

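No paired analysis was possible because each group is 1 library. All values are log2 ratios unless called counts, and the cause of a change was not tested. Nearly every alternative moved the summed share by more than its narrow counting interval, and none turned the tissue comparison round. For tumour over lymph node the ratio was -0.56 in all cells and -0.68 in non-cycling cells. It became -0.55 in all cells and -0.78 in non-cycling cells with TMM factors (which shift all genes by 0.01 and -0.10), -0.60 and -0.71 without mitochondrial genes and Malat1 in the total, -0.59 and -0.69 without the filter on foreign transcripts, -0.53 and -0.68 in cells with a Foxp3 UMI, -0.63 and -0.68 after thinning, -0.63 and -0.68 with each cell weighted equally, -0.60 and -0.73 with the tumour UMI threshold in both, -0.57 and -0.69 with 10% free RNA subtracted, and -0.57 and -0.69 with the -ps genes. Alternatives chosen after seeing the data gave -0.80 and -0.80 from the tumour threshold to 9000 UMIs, and -0.52 in all cells without Rps27, Rps28, Rps29 and Rps27rt.

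The count of members at least 1.5-fold lower in tumour (33) was 29 to 39 under the other planned settings, 4 at 2-fold and, added later, 49 in non-cycling and 4 in mitotic cells. The count at least 1.5-fold higher (2) was 1 with Foxp3 UMI cells, after thinning or at 500 UMIs, and 0 at 2-fold.

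In tumour, mitotic over non-cycling (0.12) was 0.17 with 3 list UMIs at full depth, 0.12 with 2 and 0.10 with 5 at equal depth, 0.080 after thinning, 0.13 without the cycling lists, 0.078 with cells weighted equally, 0.15 in Foxp3 UMI cells, and reversed to -0.18 at 9000 to 13999 UMIs. S-phase (0.14) gave, in that order, 0.011, 0.071, 0.19, 0.11, 0.14, 0.11, 0.091 and, reversed, -0.025. In lymph node, mitotic (-0.39) gave -0.28, -0.37, -0.43, -0.43, -0.38, -0.42, -0.40 and -0.49. S-phase (-0.08) gave -0.027, -0.091 and -0.21 for the 3 calling rules, -0.14 in Foxp3 UMI cells and -0.023 at 9000 to 13999 UMIs, and stayed within its interval otherwise. The lymph node mitotic class holds 59 cells.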
